A study of Mus musculus with 12 samples.

Results

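Chemokines are small secreted proteins that steer leukocytes, and kidney tubular epithelial cells are among their sources in an injured kidney. *Ackr3* encodes an atypical chemokine receptor, also called CXCR7, that takes up the chemokine CXCL12 and delivers it for degradation without classical G protein signalling. The 9 genes described here are *Ackr3* and 8 chemokine ligands, *Cxcl12*, *Cxcl16*, *Cxcl1*, *Cxcl5*, *Ccl2*, *Ccl5*, *Ccl7* and *Cx3cl1*. They are 9 of the 55487 genes of the count table, were found by their mouse Ensembl identifiers, and all 9 passed the filter on low counts that left 13581 genes. They were selected on earlier results of these same counts, so the counts of called genes below are descriptions, and the adjusted p-values set each difference beside the spread between libraries and are not independent evidence.

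The cells were im-TEC, which are tubular epithelial cells of the mouse that were conditionally immortalized. All groups were grown at 33 °C with 10 ng/ml IFNγ, which keeps the SV40 large T antigen on, and then spent 7 days at 37 °C without IFNγ. The 4 groups of 3 libraries each were then treated for 48 h with 10 ng/mL TGFβ plus 50 µM NNMTi, with TGFβ alone, with NNMTi alone, or left as control. NNMTi is 5-amino-1-methylquinolinium, an inhibitor of the enzyme nicotinamide N-methyltransferase, and TGFβ is the cytokine that drives scarring responses in the kidney. The libraries read the 3′ ends of transcripts, so a count does not grow with gene length. Levels are given in CPM, each gene's counts as a share of its library's scaled to one common total. All samples were of 1 cell line, and nothing in the labels says whether replicates were separate cultures.

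Totals ran from 2584117 counts, in TGFβ replicate 3, to 11866903 counts, and 3 counts in a library stood for 0.253 to 1.16 CPM. The spread between replicates was largest in the TGFβ group, with a common biological coefficient of variation of 0.228, against 0.112 in TGFβ + NNMTi, 0.0886 in NNMTi and 0.0657 in control. Of 14 markers of tubular epithelium 12 had a count, with summed levels of 2236 to 2426 CPM in TGFβ + NNMTi, 2385 to 2738 in TGFβ, 3079 to 3265 in NNMTi and 2814 to 2958 in control. In the groups with TGFβ the sum was mostly *Cdh6*, and single markers differed more than the sum: *Aqp1*, a proximal tubule water channel gene, averaged 11.5 CPM in TGFβ + NNMTi, 25.2 in TGFβ, 995 in NNMTi and 1012 in control, and the keratin gene *Krt8* 195, 288, 27.3 and 62.6 CPM in the same groups. *Epcam* and the phosphate transporter gene *Slc34a1* were at 0. *Cdh1*, the gene of E-cadherin, had 1, 4, 3 and 1 counts in the same order of groups. Of 13 immune cell markers 9 had a count, and their sum was 29.1 to 32.8 CPM in TGFβ + NNMTi, 48.8 to 61.8 in TGFβ, 60.7 to 72.4 in NNMTi and 75.5 to 80.1 in control. Most of it was *Csf1r*, while *Adgre1*, *Tyrobp*, *Nkg7* and *Cd79a* were at 0. Of 8 fibroblast markers 5 had a count, with sums of 35.4 to 46.6 CPM in TGFβ + NNMTi, 149.6 to 187 in TGFβ, 3.19 to 5.21 in NNMTi and 3.63 to 7.37 in control, mostly of *Col1a1*, while *Pdgfra*, *Lum* and *Thy1* were at 0. Of 7 endothelial markers 3 had a count, with sums between 1.15 and 6.70 CPM, and *Cdh5*, *Kdr*, *Emcn* and *Tie1* were at 0. These sums differed between the groups, and their part in the results below was not tested. In bulk RNA, fewer cells that express a gene and less RNA per cell cannot be told apart.

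The RefSeq promoter table, on build GRCm38.p6, held 4 of the 9 genes. The promoters of *Ackr3*, *Cxcl1* and *Cx3cl1* are printed because these 3 genes carried the main patterns described below. They cover 250 bases before to 50 after the start of transcription, at chr1:90203730-90204029 for *Ackr3*, chr5:90890995-90891294 for *Cxcl1* and chr8:94771930-94772229 for *Cx3cl1*, all on the + strand. Capitals mark the letters TATAAA, or the letters of the NF-kB type motif (GGGA and TTCC with any 2 bases between them), with its match on the other strand. Near matches were not searched and stay in lower case, and a marked TATAAA is not shown to act as a TATA box.
Ackr3: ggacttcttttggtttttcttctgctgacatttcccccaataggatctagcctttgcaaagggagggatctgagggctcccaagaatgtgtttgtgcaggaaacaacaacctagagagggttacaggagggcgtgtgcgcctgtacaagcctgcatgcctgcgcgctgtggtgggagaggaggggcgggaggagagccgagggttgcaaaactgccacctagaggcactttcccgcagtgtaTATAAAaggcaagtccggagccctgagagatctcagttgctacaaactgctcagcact
Cxcl1: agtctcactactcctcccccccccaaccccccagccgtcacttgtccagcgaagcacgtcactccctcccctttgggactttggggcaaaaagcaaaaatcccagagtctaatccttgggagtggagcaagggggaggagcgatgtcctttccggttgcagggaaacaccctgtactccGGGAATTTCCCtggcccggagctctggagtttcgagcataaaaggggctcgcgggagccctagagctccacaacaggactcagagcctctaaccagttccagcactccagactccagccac
Cx3cl1: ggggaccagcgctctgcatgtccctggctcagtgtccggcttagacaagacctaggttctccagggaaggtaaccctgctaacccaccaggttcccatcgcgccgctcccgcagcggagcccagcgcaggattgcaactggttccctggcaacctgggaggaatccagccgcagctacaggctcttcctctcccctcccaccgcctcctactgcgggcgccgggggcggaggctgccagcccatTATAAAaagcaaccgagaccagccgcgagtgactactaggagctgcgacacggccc
TATAAA stood 8 bases before the start in *Ackr3* and 6 before it in *Cx3cl1*. In *Cxcl1* the NF-kB type match GGGAATTTCC began 71 bases before the start, and a match of the other strand overlapped it from 70 bases before the start. Searched on both strands, TATAAA was held by 13.6% and the NF-kB type motif by 1.47% of 32851 promoters of the same length. The other motifs searched were the AP-1 letters TGANTCA, in 7.81% of promoters, the interferon-type letters, GAAA repeated with any 2 bases between, in 3.44%, the STAT-type letters TTCNNNGAA, in 8.3%, and the SMAD letters GTCTGTCT, in 1.88%, and CAGAC, in 49.6%. Of these only CAGAC was found in the 4 promoters, once, 36 bases after the start of *Cxcl1*, and the *Cxcl12* promoter held none of the 7 motifs. A match describes letters in a window and is not a site of binding.

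*Ackr3* was nearly lost wherever TGFβ was present and was lower, by far less, with NNMTi alone. It had 0.694, 1.35 and 0.528 CPM in TGFβ + NNMTi, 1.62, 0.974 and 1.15 CPM in TGFβ, 40.8, 40.3 and 38.2 CPM in NNMTi, and 63.9, 60.6 and 60.0 CPM in control. The control, NNMTi and TGFβ-treated libraries formed 3 separate levels, and only the TGFβ + NNMTi and TGFβ libraries overlapped. The level with TGFβ was 48.5-fold lower than in control, a log2 difference of -5.60 ± 0.22 (SE). It is given without a p-value because this gene was picked from that comparison. Within NNMTi-treated cells *Ackr3* fell 44.8-fold in TGFβ + NNMTi relative to NNMTi (log2 -5.49 ± 0.22, adjusted p = 1.15e-12 in edgeR). This comparison shares no library with that of TGFβ and control, but 1 model fitted both. The gene was selected on these same counts, so this adjusted p is not independent evidence. With NNMTi alone *Ackr3* fell 1.55-fold relative to control (log2 -0.63 ± 0.14, adjusted p = 0.00737). In TGFβ + NNMTi relative to TGFβ the log2 difference was -0.51, with a 95% interval of -1.22 to 0.195 and an adjusted p of 0.445. These groups held 22 and 29 counts of the gene in all, and the interval includes the difference seen with NNMTi alone. The inhibitor's effect with TGFβ minus that without it was 0.115 ± 0.419 on the log2 scale (adjusted p = 0.95).

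The genes whose log2 CPM followed *Ackr3* most closely over the 12 libraries, among genes of at least 10 CPM, were *Mme*, *Plpp3*, *Ppargc1a*, *Kctd12* and *Efemp1*, with Pearson r of 0.998, 0.996, 0.995, 0.995 and 0.994. These r describe libraries that fall into separate levels. *Mme*, the gene of the proximal tubule enzyme neprilysin, averaged 37.2 CPM in TGFβ + NNMTi, 42.8 in TGFβ, 121 in NNMTi and 146.4 in control. *Ppargc1a*, a coactivator of mitochondrial genes, averaged 10.7, 12.1, 200.6 and 256.2 CPM in the same groups. Both were low in the 2 groups with TGFβ and somewhat below control with NNMTi alone. *Arrb1*, the gene of an arrestin that carries internalized receptors, averaged 11.0 ± 2.54 CPM in TGFβ + NNMTi, 8.74 ± 2.79 in TGFβ, 36.3 ± 5.34 in NNMTi and 27.4 ± 4.86 in control (SD, n = 3 each). It fell 3.05-fold with TGFβ relative to control (adjusted p = 1.53e-05) and 3.29-fold in TGFβ + NNMTi relative to NNMTi (adjusted p = 3.13e-06). *Arrb2*, another arrestin gene, named outside the rule on named genes, went the other way. It rose 1.57-fold with TGFβ relative to control (adjusted p = 0.00276). In TGFβ + NNMTi it was 1.27-fold above NNMTi and not called (adjusted p = 0.0832).

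**Figure D1:**
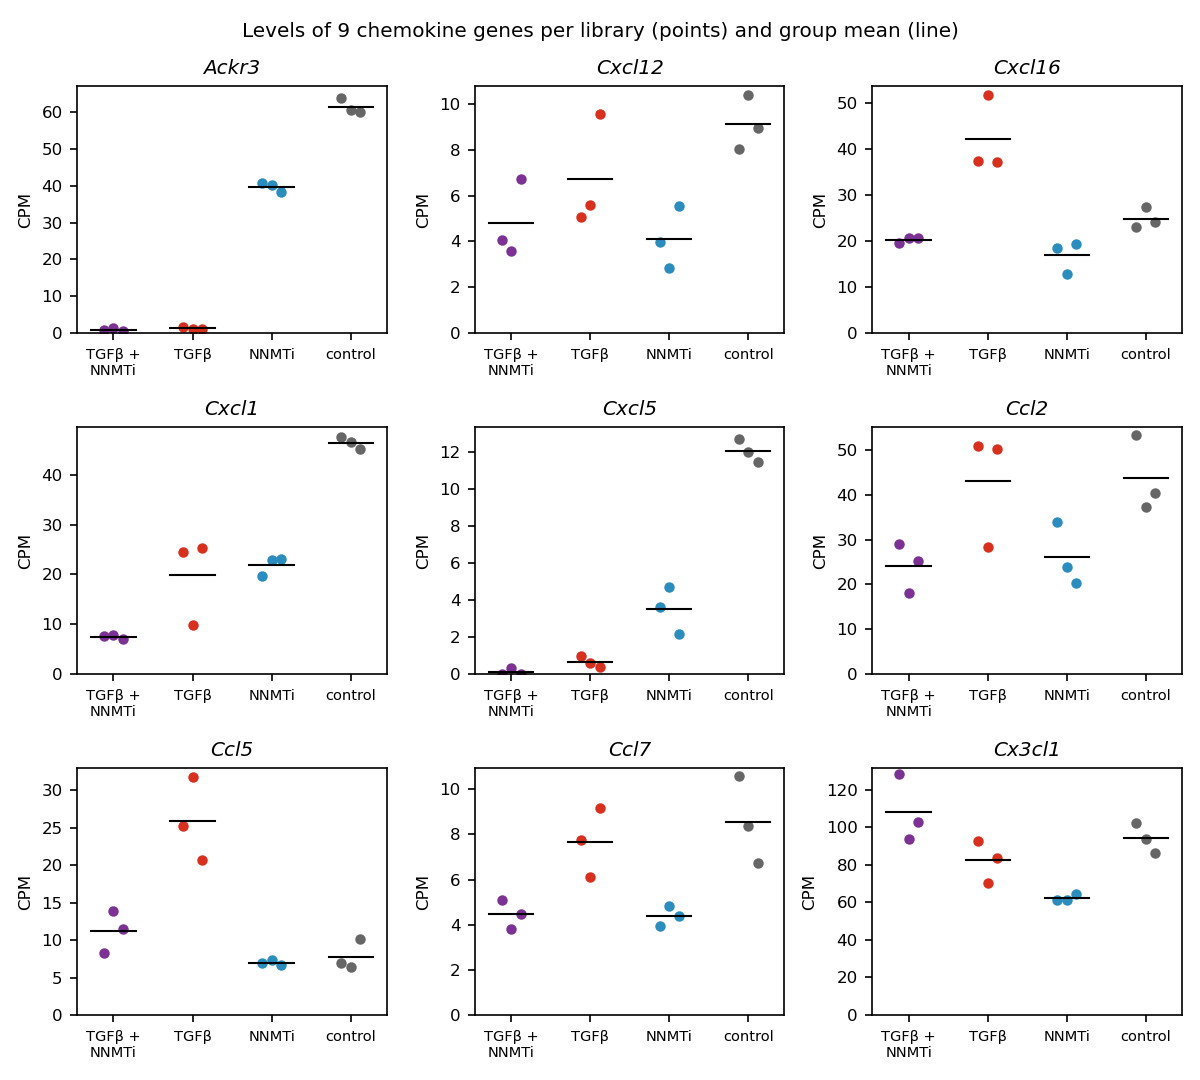
Levels of the 9 genes in CPM on linear axes that start at 0, one panel per gene, with each point a library and a bar at the mean of each group of 3, ordered TGFβ + NNMTi, TGFβ, NNMTi and control. *Ackr3* lies between 0.528 and 1.62 CPM in the 6 libraries with TGFβ and between 38.2 and 63.9 CPM in the 6 without it.

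*Cxcl12*, a ligand that ACKR3 removes and that also signals through CXCR4, was low in all groups, with its lowest means in the groups with NNMTi. It had 4.05, 3.60 and 6.73 CPM in TGFβ + NNMTi, 5.06, 5.58 and 9.57 CPM in TGFβ, 3.96, 2.84 and 5.57 CPM in NNMTi, and 8.03, 10.4 and 8.97 CPM in control. The NNMTi and TGFβ + NNMTi libraries all lay below the control libraries, while the TGFβ libraries overlapped the libraries of every other group. TGFβ + NNMTi and NNMTi also overlapped, with a log2 difference of 0.200 (95% interval -0.423 to 0.823, adjusted p = 0.663 in edgeR). The gene fell 2.20-fold with NNMTi relative to control (log2 -1.14 ± 0.30, adjusted p = 0.0242) and was 1.92-fold lower in TGFβ + NNMTi than in control (adjusted p = 0.022). Both calls were lost with some libraries left out. With NNMTi it was lost without NNMTi replicate 1 (adjusted p = 0.0862) or 2 (0.127), or control replicate 1 (0.0504), 2 (0.109) or 3 (0.0705). In TGFβ + NNMTi it was lost without that group's replicate 1 (0.0924) or 2 (0.104), or control replicate 2 (0.0874) or 3 (0.0541). With TGFβ relative to control the log2 difference was -0.55 ± 0.30 (adjusted p = 0.173), although limma-voom with quality weights called it lower (0.0198).

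Counts of the receptors these ligands use were almost all at 0. Of 24 chemokine receptors other than *Ackr3*, 8 had any count in the 12 libraries, and *Cxcr4*, *Cxcr2*, *Cxcr3*, *Ccr1* and *Ccr2* had none. *Ccrl2*, a non-signalling receptor that presents chemerin, was the 1 receptor with enough counts to test, with 40 counts in TGFβ + NNMTi, 53 in TGFβ, 98 in NNMTi and 84 in control over 3 libraries each. It fell 2.28-fold in TGFβ + NNMTi relative to NNMTi (log2 -1.19 ± 0.39, adjusted p = 0.0211), a call lost without TGFβ + NNMTi replicate 2 (0.0875) or NNMTi replicate 1 (0.117), and was called in no other comparison. *Cx3cr1*, the receptor of CX3CL1, had 18, 28, 3 and 5 counts in the same groups. *Cxcr6*, the receptor of CXCL16, had 1 count in all, in a TGFβ library.

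*Cxcl1* and *Cxcl5* encode ligands of CXCR2 that attract neutrophils, and both were lower under each treatment and lowest under both together. *Cxcl1* had 7.64, 7.75 and 7.00 CPM in TGFβ + NNMTi, 24.5, 9.92 and 25.3 CPM in TGFβ, 19.6, 23.0 and 23.1 CPM in NNMTi, and 47.5, 46.5 and 45.3 CPM in control. All 9 treated libraries lay below all 3 control libraries, all 3 TGFβ + NNMTi libraries lay below the other groups, and TGFβ replicate 2 stood well under the other 2 of its group. *Cxcl1* fell 2.45-fold with TGFβ (log2 -1.29 ± 0.24, adjusted p = 5.25e-04) and 2.12-fold with NNMTi (log2 -1.08 ± 0.23, adjusted p = 0.00765), both relative to control. It fell 6.20-fold in TGFβ + NNMTi relative to control (log2 -2.63 ± 0.26, adjusted p = 7.44e-07). Against the single treatments, TGFβ + NNMTi was 2.53-fold below TGFβ (adjusted p = 0.00533) and 2.93-fold below NNMTi (adjusted p = 2.1e-04). The call with NNMTi relative to control was lost without NNMTi replicate 1 (adjusted p = 0.0583). That of TGFβ + NNMTi relative to TGFβ was lost when only those groups were fitted (adjusted p = 0.0651).

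*Cxcl5* had 0, 0.337 and 0 CPM in TGFβ + NNMTi, 0.969, 0.620 and 0.383 CPM in TGFβ, 3.63, 4.73 and 2.18 CPM in NNMTi, and 12.7, 12.0 and 11.5 CPM in control. The 4 groups did not overlap. Between TGFβ + NNMTi and TGFβ this rests on single counts: the closest libraries held 3 counts (TGFβ + NNMTi replicate 2) and 1 count (TGFβ replicate 3). It fell 3.43-fold with NNMTi (log2 -1.78 ± 0.33, adjusted p = 0.00212) and 16.3-fold with TGFβ (log2 -4.03 ± 0.43, adjusted p = 7.35e-07), both relative to control. TGFβ + NNMTi held 3 counts of the gene, against 17 in TGFβ, 93 in NNMTi and 327 in control. By these counts its level was 0.163 of that in TGFβ (exact 95% counting interval 0.0306 to 0.563), 0.0343 of that in NNMTi (0.00695 to 0.103) and 0.00992 of that in control (0.00203 to 0.0292). These intervals cover counting error only. The fall was called relative to NNMTi (adjusted p = 7.74e-06) and to control (adjusted p = 3.33e-08) but not to TGFβ (adjusted p = 0.0626). All 3 counts came from replicate 2, and without it the group was at 0, at least 18.8-fold below NNMTi and 65.1-fold below control with 3 counts over the group as the floor. The comparison with TGFβ was then called (adjusted p = 0.0194), as it was without TGFβ replicate 3 (0.0474).

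*Ppbp*, the gene next to *Cxcl5* in RefSeq gene order with no protein-coding gene between them, encodes another CXCR2 ligand and followed another pattern. It had 4.75, 2.92 and 4.23 CPM in TGFβ + NNMTi, 18.2, 14.7 and 21.4 CPM in TGFβ, 0.110, 0 and 0.764 CPM in NNMTi, and 3.24, 3.39 and 2.32 CPM in control. The TGFβ libraries stood above all others and the NNMTi libraries below all others. *Ppbp* rose 5.97-fold with TGFβ relative to control (adjusted p = 9.57e-06), where its neighbour *Cxcl5* fell. It fell 9.50-fold with NNMTi relative to control (adjusted p = 8.47e-04), or 42.0-fold without NNMTi replicate 3, and 4.48-fold in TGFβ + NNMTi relative to TGFβ (adjusted p = 3.66e-04). Likewise it was 12.7-fold higher in TGFβ + NNMTi than in NNMTi, or 55.8-fold higher without NNMTi replicate 3. NNMTi replicates 1, 2 and 3 held 1, 0 and 7 counts of *Ppbp*. The 42.0-fold and 55.8-fold differences therefore rest on 1 count in NNMTi and do not measure a size.

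*Ccl2* and *Ccl7* encode ligands of CCR2 that attract monocytes and lie side by side in gene order, with no protein-coding gene between them. *Ccl2* had 28.9, 18.0 and 25.2 CPM in TGFβ + NNMTi, 50.9, 28.2 and 50.1 CPM in TGFβ, 34.0, 23.8 and 20.2 CPM in NNMTi, and 53.3, 37.2 and 40.4 CPM in control. *Ccl7* had 5.09, 3.82 and 4.49 CPM in TGFβ + NNMTi, 7.76, 6.11 and 9.18 CPM in TGFβ, 3.96, 4.85 and 4.37 CPM in NNMTi, and 10.6, 8.35 and 6.75 CPM in control. For both genes the libraries of the 2 groups with NNMTi overlapped each other and all lay below control, and the TGFβ libraries overlapped the control libraries. With TGFβ relative to control the log2 differences were -0.05 for *Ccl2* (95% interval -0.549 to 0.459, adjusted p = 0.912) and -0.21 for *Ccl7* (adjusted p = 0.553). *Ccl7* fell 1.95-fold with NNMTi relative to control (log2 -0.96 ± 0.25, adjusted p = 0.0204) and 1.91-fold in TGFβ + NNMTi relative to control (adjusted p = 0.00684). *Ccl2* fell 1.82-fold in TGFβ + NNMTi relative to control (log2 -0.86 ± 0.26, adjusted p = 0.022). With NNMTi alone *Ccl2* was 1.68-fold lower than control with an adjusted p of 0.102, and in TGFβ + NNMTi 1.76-fold lower than in TGFβ with an adjusted p of 0.0699. Without TGFβ replicate 2, these became 0.0149 and 0.00635. Both were also called by DESeq2 (0.0354 and 0.0181), by limma-voom (0.00207 and 0.00145) and with no filter on low counts (7.35e-05 and 3.6e-05), so the call of *Ccl2* turned on the method too.

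The calls made for both genes were also lost when single libraries were left out. That of *Ccl7* with NNMTi was lost without NNMTi replicate 1 (adjusted p = 0.0821), 2 (0.0508) or 3 (0.0677), or control replicate 1 (0.128) or 2 (0.0631). That of *Ccl7* in TGFβ + NNMTi relative to control was lost without control replicate 1 (0.0502). That of *Ccl2* was lost without TGFβ + NNMTi replicate 2 (0.101) or 3 (0.0617), or control replicate 1 (0.0856). *Ccl7* in TGFβ + NNMTi relative to TGFβ, not called at an adjusted p of 0.0778, was called without TGFβ replicate 2 (0.0487).

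*Ccl5*, which encodes a ligand that draws T cells and monocytes, was the ligand that TGFβ raised most among the 8 and was lower again when the inhibitor was added to it. It had 8.33, 13.9 and 11.5 CPM in TGFβ + NNMTi, 25.2, 31.7 and 20.7 CPM in TGFβ, 6.94, 7.33 and 6.66 CPM in NNMTi, and 6.92, 6.42 and 10.1 CPM in control. The TGFβ libraries stood above all others, and the TGFβ + NNMTi libraries overlapped control. *Ccl5* rose 3.36-fold with TGFβ relative to control (log2 1.75 ± 0.22, adjusted p = 5.86e-06). It fell 2.34-fold in TGFβ + NNMTi relative to TGFβ (log2 -1.23 ± 0.22, adjusted p = 0.00126), while with NNMTi alone the log2 difference from control was -0.17 (95% interval -0.635 to 0.295, adjusted p = 0.754). The difference between these inhibitor effects was -1.06 ± 0.32 and did not pass the test (adjusted p = 0.158), although limma-voom with quality weights called it (0.0362). TGFβ + NNMTi was 1.61-fold above NNMTi (adjusted p = 0.0261), a call lost without TGFβ + NNMTi replicate 2 (0.125) or 3 (0.0555), or NNMTi replicate 1 (0.0585) or 3 (0.0675). Relative to control it was 1.43-fold higher with an adjusted p of 0.0926, and called without TGFβ + NNMTi replicate 1 (0.0353) or control replicate 3 (0.0365).

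*Cxcl16* and *Cx3cl1* encode the chemokines that are made as membrane proteins, serve as adhesion molecules and are released by the sheddases ADAM10 and ADAM17. *Cxcl16* had 19.6, 20.6 and 20.6 CPM in TGFβ + NNMTi, 37.4, 51.7 and 37.1 CPM in TGFβ, 18.5, 12.9 and 19.3 CPM in NNMTi, and 23.0, 27.4 and 24.1 CPM in control. The 4 groups did not overlap, with TGFβ highest and NNMTi lowest, but the closest libraries of TGFβ + NNMTi and NNMTi stood at 19.6 and 19.3 CPM. TGFβ + NNMTi was called neither relative to NNMTi (log2 0.257, adjusted p = 0.262 in edgeR) nor relative to control (log2 -0.293, adjusted p = 0.199). *Cxcl16* rose 1.72-fold with TGFβ relative to control (log2 0.78 ± 0.16, adjusted p = 9.93e-04) and fell 2.10-fold in TGFβ + NNMTi relative to TGFβ (log2 -1.07 ± 0.17, adjusted p = 3.83e-04). With NNMTi alone it was 1.46-fold lower than control with an adjusted p of 0.0515, and was called without TGFβ replicate 2 (0.00816) or 3 (0.0382) or NNMTi replicate 3 (0.049). It was also called in 6 other alternatives, with adjusted p between 0.00129 (limma-voom) and 0.0391 (RLE scaling), DESeq2 among them (0.0323). *Zmynd15* overlaps it on the opposite strand and had 99 counts over the 12 libraries.

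*Cx3cl1*, the gene of fractalkine, had the most CPM of the 8 ligands, and the inhibitor's effect on it differed with TGFβ present. It had 128, 93.6 and 102.6 CPM in TGFβ + NNMTi, 92.7, 70.5 and 83.8 CPM in TGFβ, 61.3, 61.4 and 64.4 CPM in NNMTi, and 102, 93.6 and 86.5 CPM in control. The NNMTi libraries lay below all 9 others, and the TGFβ + NNMTi libraries all lay above the TGFβ libraries. With NNMTi alone *Cx3cl1* fell 1.51-fold relative to control (log2 -0.59 ± 0.13, adjusted p = 0.00629). In TGFβ + NNMTi it was 1.32-fold above TGFβ (log2 0.40 ± 0.13) with an adjusted p of 0.0555, which became 0.0339 without TGFβ + NNMTi replicate 2 and 0.0303 without TGFβ replicate 1. The inhibitor effect with TGFβ minus that without it was 0.99 ± 0.18 on the log2 scale (adjusted p = 0.00838). It was called in all 12 fits that each left out a library, with adjusted p between 8.04e-04 and 0.0382. Among NNMTi-treated cells *Cx3cl1* rose 1.73-fold in TGFβ + NNMTi relative to NNMTi (log2 0.79 ± 0.13, adjusted p = 7.24e-05), while with TGFβ relative to control its log2 difference was -0.20 (95% interval -0.447 to 0.055, adjusted p = 0.251).

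Of the sheddases, *Adam10*, named outside the rule on named genes for this role, averaged 109 ± 9.3 CPM in TGFβ + NNMTi, 104 ± 10.3 in TGFβ, 87.3 ± 9.64 in NNMTi and 72.3 ± 3.22 in control (SD, n = 3 each). It rose 1.43-fold with TGFβ relative to control (adjusted p = 0.00143). *Adam17* averaged 86.0 ± 0.963, 56.3 ± 9.99, 78.1 ± 4.05 and 65.8 ± 1.29 CPM in the same groups. It rose 1.51-fold in TGFβ + NNMTi relative to TGFβ (adjusted p = 0.00299), with no overlap between the groups. Fitted on those groups alone its adjusted p was 0.05 and the call was lost.

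**Figure D2:**
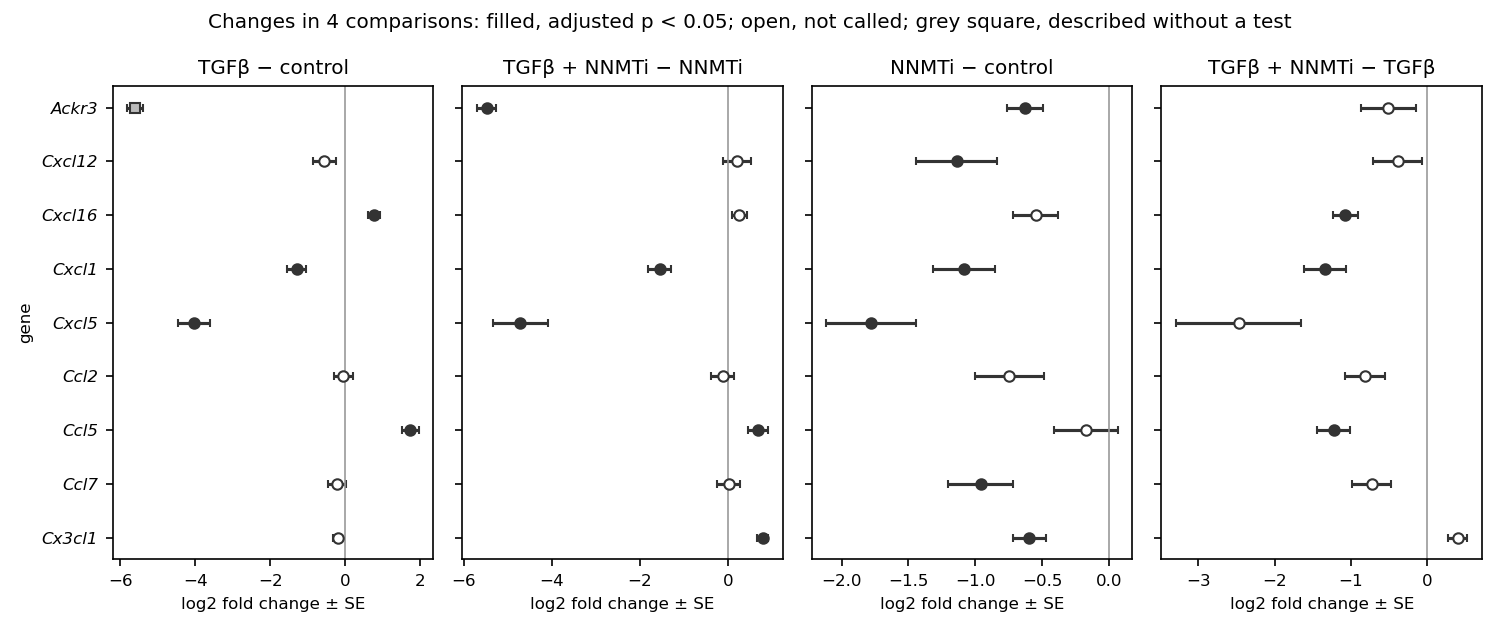
Log2 differences of the 9 genes in 4 comparisons, with bars of 1 SE, filled points at an adjusted p below 0.05 in edgeR, open points where the test was not passed, and a grey square for *Ackr3* with TGFβ, given without a p-value. With NNMTi relative to control all 9 points lie below 0, while *Cx3cl1* alone lies above 0 in TGFβ + NNMTi relative to TGFβ.

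Set side by side, the inhibitor's effects on the 9 genes were mostly falls. With NNMTi relative to control 6 of the 9 were called lower and 0 higher, where 5.8% of the 13581 genes tested were called lower and 2.47% higher. The median log2 difference was -0.747 over the 9 and 0.007 over all genes tested. Without NNMTi replicate 1 the number called lower was 3. In TGFβ + NNMTi relative to TGFβ 3 of the 9 were called lower and 0 higher (6.97% and 3.45% of all genes), with medians of -0.817 and -0.022. The number called in either direction was then 5 without TGFβ + NNMTi replicate 2, with *Cxcl5* and *Cx3cl1* gained, and 5 without TGFβ replicate 2, with *Ccl2* and *Ccl7* gained. With TGFβ relative to control 2 ligands were called higher and 2 lower apart from *Ackr3* (19.4% and 17.1% of all genes). In TGFβ + NNMTi relative to NNMTi 2 were called higher and 3 lower (18% and 18.3%), and relative to control 0 higher and 6 lower (15.3% and 16.5%). The interaction was called higher for *Cx3cl1* and lower for none (0.641% and 0.471%). Because these genes were selected on the same counts, the shares give the background only.

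Scaled by library size alone, the median of all genes shifted by -0.116 on the log2 scale for TGFβ + NNMTi relative to control. Calls then split into 1404 higher and 2899 lower, against 2077 and 2244 as reported. For NNMTi relative to control the split was 204 and 1036, against 335 and 788. For TGFβ relative to control it was 2144 and 2811, against 2636 and 2325.

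The 8 ligands together made 180 ± 20.2 CPM in TGFβ + NNMTi, 228 ± 21.2 in TGFβ, 146 ± 5.59 in NNMTi and 247 ± 16.1 in control (SD, n = 3 each). *Cx3cl1* made 59.7 ± 3.32% of that sum in TGFβ + NNMTi, against 36.0 ± 1.77% in TGFβ, 42.7 ± 2.05% in NNMTi and 38.2 ± 0.971% in control. *Cxcl1* made 4.17% of it in TGFβ + NNMTi, 8.52% in TGFβ, 15.02% in NNMTi and 18.9% in control. The sum leaves out other ligands, among them *Cxcl10*, which averaged 287 CPM in TGFβ + NNMTi, 455 in TGFβ, 43.5 in NNMTi and 70.7 in control. In both groups with TGFβ *Cxcl10* alone exceeded the sum, so the order of the sums holds for these 8 ligands only. A sum in CPM over 3′ ends weighs each ligand by its transcripts and says nothing of protein.

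**Figure D3:**
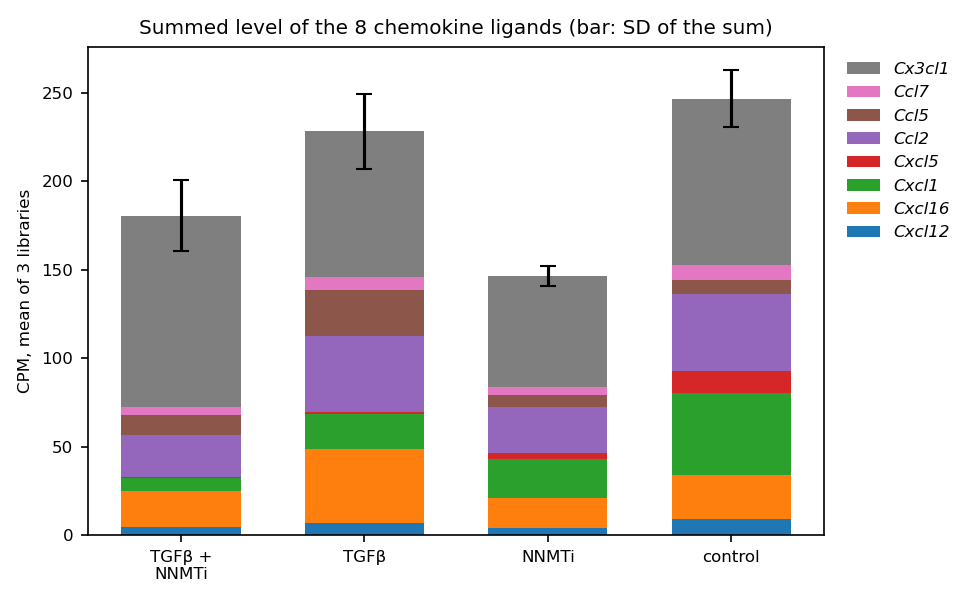
Mean CPM of the 8 ligands over 3 libraries as stacked bars that start at 0, one colour per ligand, with the SD of the summed level as error bar, ordered TGFβ + NNMTi, TGFβ, NNMTi and control. The mean sum is 180 CPM in TGFβ + NNMTi, 228 in TGFβ, 146 in NNMTi and 247 in control, and *Cx3cl1* takes the largest part of every bar.

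Among 30 other chemokine ligands listed, 17 had a count and 7 were tested. With TGFβ relative to control 4 of the 7 were called higher and 2 lower (19.4% and 17.1% of all genes tested). With NNMTi relative to control 0 were called higher and 3 lower (2.47% and 5.8% of all genes), and in TGFβ + NNMTi relative to TGFβ 0 and 4 (3.45% and 6.97%). *Cxcl10*, an interferon-induced ligand of CXCR3, had 279, 302 and 280 CPM in TGFβ + NNMTi, 403, 477 and 484 CPM in TGFβ, 49.1, 40.1 and 41.4 CPM in NNMTi, and 72.0, 71.4 and 68.7 CPM in control. The 4 groups did not overlap. It fell 1.62-fold with NNMTi relative to control (adjusted p = 2.81e-04) and 1.58-fold in TGFβ + NNMTi relative to TGFβ (adjusted p = 3.03e-04), with an interaction of 0.037 ± 0.145 (adjusted p = 0.955). *Ccl27a*, a ligand of CCR10 known from skin, averaged 3.17 ± 1.09 CPM in TGFβ + NNMTi, 3.15 ± 0.438 in TGFβ, 8.73 ± 1.14 in NNMTi and 6.43 ± 0.429 in control (SD, n = 3 each). It fell 1.97-fold with TGFβ relative to control (adjusted p = 0.00949). *Cxcl11* averaged 7.35 CPM in TGFβ + NNMTi, 14.1 in TGFβ, 5.61 in NNMTi and 7.43 in control. It rose 2-fold with TGFβ relative to control (adjusted p = 0.00338), with overlapping libraries. In TGFβ + NNMTi it fell 2.01-fold relative to TGFβ (adjusted p = 0.0133). That call was lost without TGFβ + NNMTi replicate 3 (0.061) or TGFβ replicate 2 (0.0567).

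*Ccl17*, a CCR4 ligand, lies next to *Cx3cl1* in gene order with no protein-coding gene between them. It had 20.1, 20.8 and 16.6 CPM in TGFβ + NNMTi, 31.0, 46.1 and 32.5 CPM in TGFβ, 3.85, 3.31 and 4.91 CPM in NNMTi, and 16.9, 22.9 and 16.4 CPM in control. The TGFβ libraries were highest and the NNMTi libraries lowest, with the other 2 groups overlapping between them. *Ccl17* fell 4.61-fold with NNMTi relative to control (log2 -2.21 ± 0.22, adjusted p = 3.54e-06) and 1.92-fold in TGFβ + NNMTi relative to TGFβ (adjusted p = 0.00316). The inhibitor effect with TGFβ minus that without it was 1.26 ± 0.29 (adjusted p = 0.0385), of the same sign as for *Cx3cl1*. For *Ccl17* the inhibitor difference was a fall with and without TGFβ, while for *Cx3cl1* it was a fall only without TGFβ. The interaction call of *Ccl17* was lost without TGFβ + NNMTi replicate 1 (0.0803) or 2 (0.0677), or TGFβ replicate 1 (0.079). It was also lost without NNMTi replicate 1 (0.0949) or 2 (0.106), or control replicate 1 (0.0696), 2 (0.141) or 3 (0.0605). With counts thinned to the shallowest library the interaction was 0.855 (adjusted p = 0.53).

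**Figure D4:**
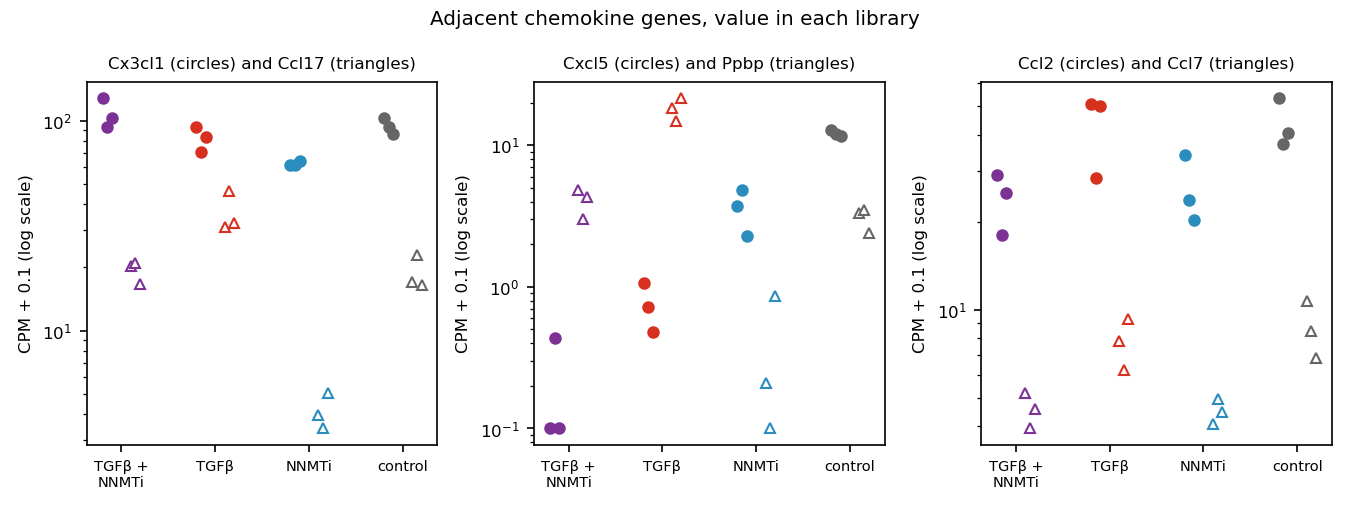
CPM per library, on a log scale, of 3 pairs of adjacent chemokine genes, 1 marker shape per gene and 1 point per library, ordered TGFβ + NNMTi, TGFβ, NNMTi and control, with 0.1 CPM added to each value. *Ppbp* is highest in TGFβ, where its neighbour *Cxcl5* is low, and *Ccl17* and *Cx3cl1* are both lowest in NNMTi.

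Of 24 genes for enzymes and partners that cut or bind chemokines, 20 had a count and 17 were tested. Of the 17, 7 were called higher and 3 lower with TGFβ relative to control (19.4% and 17.1% of all genes tested). The counts were 0 and 2 with NNMTi relative to control (2.47% and 5.8%), and 2 and 1 in TGFβ + NNMTi relative to TGFβ (3.45% and 6.97%). *Mmp2*, a gelatinase that trims CXCL12 and CCL7, averaged 254 ± 27.2 CPM in TGFβ + NNMTi, 235 ± 33.6 in TGFβ, 65.7 ± 3.39 in NNMTi and 131 ± 10.9 in control (SD, n = 3 each). It fell 1.99-fold with NNMTi relative to control (adjusted p = 2.14e-05), while in TGFβ + NNMTi relative to TGFβ its log2 difference was 0.11 ± 0.11 (adjusted p = 0.594). The difference between these effects was 1.10 ± 0.16 (adjusted p = 0.00153).

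All 24 listed regulators of NF-kB and interferon signalling were tested. Of the 24, 7 were called higher and 5 lower with TGFβ relative to control (19.4% and 17.1% of all genes tested). The counts were 0 and 3 with NNMTi relative to control (2.47% and 5.8%), and 0 and 5 in TGFβ + NNMTi relative to TGFβ (3.45% and 6.97%). *Irf7*, a transcription factor induced by interferon, averaged 54.0 ± 6.33 CPM in TGFβ + NNMTi, 135 ± 21.3 in TGFβ, 10.9 ± 1.19 in NNMTi and 16.7 ± 2.59 in control (SD, n = 3 each). It rose 8.06-fold with TGFβ relative to control (adjusted p = 4.24e-11) and fell 2.50-fold in TGFβ + NNMTi relative to TGFβ (adjusted p = 6.54e-06). *Stat2*, a subunit of the interferon-activated transcription factor, averaged 55.6 ± 3.12, 85.7 ± 9.95, 24.6 ± 3.01 and 30.6 ± 4.28 CPM in the same groups. It rose 2.82-fold with TGFβ relative to control (adjusted p = 7.41e-08) and fell 1.55-fold in TGFβ + NNMTi relative to TGFβ (adjusted p = 0.00429). With TGFβ relative to control *Fos* fell 4.43-fold (adjusted p = 1.76e-06) and *Cebpb* 1.95-fold (0.00105). The NF-kB genes, of which *Rela*, *Relb*, *Rel* and *Nfkb2* are named outside the rule, were mixed in that comparison. *Rela* (0.815), *Relb* (0.986) and *Nfkb1* (0.173) were not called. *Rel* (1.52-fold, 0.016), *Nfkb2* (1.31-fold, 0.0205) and *Tnfaip3* (3.16-fold, 0.00165) were called higher. With NNMTi relative to control *Nfkb1* (1.39-fold, 0.0306) and *Nfkbie* (2.1-fold, 0.00609) were called lower, and no other NF-kB gene listed was called. In TGFβ + NNMTi relative to NNMTi *Nfkb1* (1.86-fold, 2.41e-05), *Rela* (1.27-fold, 0.026), *Nfkbie* (1.62-fold, 0.0251) and *Tnfaip3* (2.09-fold, 0.0431) were called higher.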

How the data were processed

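The data were 12 libraries, 3 for each of 4 groups of im-TEC. Per the labels' protocols, 100 ng of total RNA went into QuantSeq 3′ FWD libraries. STAR and HTSeq are named in the submitters' processing notes, without versions, and the table the authors deposited holds raw counts per gene. The build named there is GRCh38, a human build, although the identifiers are mouse Ensembl IDs, so positions come only from the RefSeq promoter table. The strand setting of counting is not given in the sources used here, so reads of overlapping genes may not be told apart.

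Of 55487 genes 23630 had a count, and 55141 identifiers matched a symbol. The 5 summary rows that name no gene were left out, and reads assigned to no feature were 21.1 to 22.9% in TGFβ + NNMTi, 21.1 to 22.8% in TGFβ, 24.1 to 26.8% in NNMTi and 25.6 to 26.1% in control. Between replicates, chi-square divided by its degrees of freedom was 3.3 to 44.4, so none was a duplicate. Genes were filtered with filterByExpr, scaled by TMM and tested with edgeR 4.0.16 (R 4.3.3) quasi-likelihood tests in 1 model of 4 group means, with calls at 0.05 after Benjamini-Hochberg adjustment over 13581 genes. The 6 comparisons share libraries, since each group enters at least 3 of them. The interaction is the inhibitor effect with TGFβ minus that without. CPM were computed on library sizes scaled by TMM, and their log2 with a prior count of 3. The SE of a log2 difference was its absolute value divided by the square root of its quasi-likelihood F statistic. Fits have normal 95% intervals from this SE, and counts exact 95% intervals.

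All 9 genes were named, and genes of the other lists if they averaged at least 5 CPM, were called at least once and were among the 6 smallest adjusted p of a list and comparison. The members, lists and tests were chosen with earlier results of these data known. Nothing says that replicates were separate cultures, so p-values measure the spread between these samples, which may be technical. The procedure was tested on simulated data. The 20 alternatives were each library left out (12), no filter, RLE, library size only, replicate number as a block, only the groups compared, thinned counts, limma-voom with quality weights (limma 3.58.1) and DESeq2 1.42.0. One listed receptor is not reported here.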

Additional observations from a re-analysis of the deposited data

Results flagged for a closer look

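*Cx3cl1* was singled out because the inhibitor's effect differed between cells with and without TGFβ, tested by the interaction. The log2 difference was 0.40 in TGFβ + NNMTi relative to TGFβ and -0.59 in NNMTi relative to control, so that the effect with TGFβ minus that without was 0.989 (adjusted p = 0.00838 in edgeR).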

How the results depend on the processing

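As reported, the numbers of the 9 genes called were 5 for TGFβ with control and 6 for NNMTi with control. For TGFβ + NNMTi they were 3 with TGFβ, 5 with NNMTi and 6 with control, and the interaction had 1. The count for TGFβ with control includes *Ackr3*, whose difference is given above without a p-value. For TGFβ + NNMTi with TGFβ the count was 6 with no filter on low counts and 5 with limma-voom and quality weights, and for the interaction it was 2 with limma-voom. With each library left out in turn it ran from 5 to 5, 3 to 8, 3 to 5, 4 to 5, 4 to 6 and 1 to 1 in the order above. Same-numbered replicates did not deviate together: of 18 pairs 1 had a correlation over 0.1, with a range of -0.0847 to 0.202. Replicate numbers therefore name samples only, and with the replicate number as a block the count for TGFβ + NNMTi with TGFβ was 5, with *Ccl2* (adjusted p = 0.00556) and *Cx3cl1* (0.0365) gained, and *Ccl2* was called with NNMTi (0.00736). Thinned to the shallowest total of 2584117 counts, the calls of *Cxcl12* (adjusted p = 0.0568) and *Ccl7* (0.111) with NNMTi and of *Ccl7* in TGFβ + NNMTi relative to control (0.0763) were lost. The thinned fall of *Cxcl5* in TGFβ + NNMTi was 8.54-fold relative to NNMTi and 39.3-fold relative to control, and that of *Cxcl12* relative to control 3.03-fold. The causes were not tested. Over the 9 genes and 14 genes of the other lists, 2563 of 2730 results under an alternative kept direction and side of the threshold, 75 lost a call, 43 gained one, and 49 differences not called either way changed sign, with 0 called differences reversed. Depth limits *Cxcl5* and *Ackr3* in the groups with TGFβ, where *Ackr3* had 3 to 15 counts a library and *Cxcl5* 0 to 9. It also limits *Ppbp* in NNMTi, with 0 to 7 counts a library.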
